A study of Mus musculus with 192 samples.

Results

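Mouse bone marrow-derived dendritic cells given lipopolysaccharide (LPS) and CpGB together were compared with the same kind of cells given either ligand alone. The 3 libraries that carry both ligand names in their labels were set against the 3 libraries of LPS and the 3 of CpGB, which is 9 libraries of a series of 64 groups with 3 libraries each, and 3 Ctrl libraries gave the background. The cells were grown with the growth factor GM-CSF from bone marrow of female C57BL/6J mice aged 6 to 8 weeks, and plated at 100000 per well, which all 4 groups share. Ligands were given for 6 hours, and the labels do not say what Ctrl received. The doses were not given in the sources used here, so an effect of the second ligand and an effect of more ligand in total cannot be told apart. Nothing in the labels says whether the 3 libraries of a group came from separate cultures or animals, so p-values measure the spread between these libraries, which may be technical.

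LPS, a component of the outer membrane of Gram-negative bacteria, is sensed by the receptor TLR4 with its partners CD14 and MD-2. TLR4 signals through the adaptor MyD88 from the cell surface and through the adaptor TRIF from endosomes, and the TRIF branch is the one known for switching on type I interferon. Unmethylated CpG DNA is sensed in endosomes by TLR9, which signals through MyD88. Both routes activate NF-kB and MAP kinases, which drive cytokine and chemokine genes in dendritic cells. The name CpGB is used as in the labels, which do not spell it out.

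Expression was read as counts of unique molecular identifiers (UMIs, tags that mark single cDNA molecules). Totals ran from 98306 to 229979 per library in the 9 ligand libraries and from 61823 to 89530 in Ctrl, and levels below are CPM (counts scaled to a common total) as mean ± SD with n = 3, with libraries in the order of replicates 1, 2 and 3. The CPM use each library's counts in the tested genes times its TMM factor, an estimate of composition that ran from 0.973 to 1.11 in the ligand libraries and from 1.26 to 1.27 in Ctrl, so Ctrl levels are lower than plain CPM would give. Genes were tested with edgeR's quasi-likelihood test, and a gene was called different at a Benjamini-Hochberg adjusted p under 0.05 with a log2 difference of at least 1 in size, over 4720 tested genes. The labelled cell type was checked against marker genes. Of 8 dendritic cell genes, H2-Ab1 (1760 ± 79.4 CPM with LPS+CpGB), Cd74 (968 ± 136) and Itgax (308 ± 46.1) were well counted. Flt3, Ciita and Batf3 had only 2, 4 and 6 counts with LPS+CpGB. Batf3 was at 13.4 ± 9.84 CPM there, against 76.5 ± 19.7 in Ctrl. Cd209a had no count in any of the 12 libraries. Zbtb46 had 1 count with LPS+CpGB, 2 with CpGB and none with LPS or in Ctrl. The summed level of 8 macrophage genes differed between the groups, from 2350 to 2788 CPM with LPS+CpGB, 2717 to 2788 with LPS, 3096 to 3647 with CpGB and 3679 to 3821 in Ctrl. Csf1r (432 ± 45.4 CPM with the pair, 974 ± 108 with CpGB and 1718 ± 85.2 in Ctrl) and Emr1 (443 ± 30.1, 880.0 ± 20.9 and 287 ± 131 in the same order) carried the lower sum with the pair than with CpGB. Against Ctrl the mean with the pair was lower for Csf1r and higher for Emr1. C1qb, C1qc and Cd68 had means with the pair close to or above those with CpGB, and Fcgr1 was at 315 ± 46.9 CPM with the pair, 252 ± 65.5 with CpGB and 60.7 ± 14.2 in Ctrl. The part of these genes in the results was not tested. Neutrophil genes summed to between 696 and 1072 CPM with the ligands. Elane had no count in any group, but S100a9 (401 ± 82.0 CPM with the pair), S100a8 (260.0 ± 56.0) and Ngp (134 ± 28.5) had counts, as did Camp and Ltf. Genes of mast, B, T, NK and erythroid cells stayed at or below 22.3 CPM. The 5 plasmacytoid dendritic cell genes summed to between 884 and 1075 CPM with LPS+CpGB, 798 and 1236 with LPS, 679 and 890 with CpGB and 137 and 182 in Ctrl. Bst2, which interferon is known to induce, carried most of this (832 ± 111 CPM with the pair and 111 ± 32.0 in Ctrl), while the defining gene Siglech had no count with LPS+CpGB or CpGB and Klk1 none in any group. The part of these genes in the results was not tested. In bulk RNA, fewer cells of a type and less RNA per cell cannot be told apart.

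For 4 of the 14 genes with the largest excess of the pair over both single ligands, the 250 bases before the transcription start are shown, so that letters known to be bound by NF-kB and related factors can be looked for in them. They are the largest by that measure for which the RefSeq table of promoters, build GRCm38.p6, has an entry. Each reads from 5′ to 3′ along the gene's own strand, and capitals mark matches to a searched motif. Ifnb1 lies at chr4:88522795-88523044 on the minus strand, Ccne1 at chr7:38107491-38107740 on the minus strand, Il12b at chr11:44399813-44400062 on the plus strand and Dusp1 at chr17:26508473-26508722 on the minus strand.
Ifnb1: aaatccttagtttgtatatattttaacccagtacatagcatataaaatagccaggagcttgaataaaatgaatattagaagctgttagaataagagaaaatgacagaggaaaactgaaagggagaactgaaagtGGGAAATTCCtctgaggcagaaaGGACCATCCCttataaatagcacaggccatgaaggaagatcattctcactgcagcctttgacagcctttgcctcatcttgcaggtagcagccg
Ccne1: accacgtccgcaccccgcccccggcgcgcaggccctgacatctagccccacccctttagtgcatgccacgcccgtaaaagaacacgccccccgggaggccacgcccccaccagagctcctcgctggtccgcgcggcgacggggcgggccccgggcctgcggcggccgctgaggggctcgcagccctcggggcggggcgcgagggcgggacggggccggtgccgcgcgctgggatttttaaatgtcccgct
Il12b: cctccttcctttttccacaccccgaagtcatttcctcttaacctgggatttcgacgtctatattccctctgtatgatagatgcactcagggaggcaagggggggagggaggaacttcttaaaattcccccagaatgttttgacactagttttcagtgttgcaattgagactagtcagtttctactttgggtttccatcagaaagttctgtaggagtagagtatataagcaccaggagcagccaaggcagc
Dusp1: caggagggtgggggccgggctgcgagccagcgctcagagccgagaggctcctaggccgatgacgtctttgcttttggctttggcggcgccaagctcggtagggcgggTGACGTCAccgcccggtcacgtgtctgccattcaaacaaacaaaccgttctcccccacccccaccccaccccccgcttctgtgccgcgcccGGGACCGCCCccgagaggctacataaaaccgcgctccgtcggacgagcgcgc
The motifs, searched on both strands in 250 upstream bases, were GGGA followed after 4 free bases by CC for NF-kB, GAAA repeated after 2 free bases for the interferon-stimulated response element, TTGCNNAA for C/EBP, TGANTCA for AP-1 and TGACGTCA for the cyclic AMP response element. Ifnb1 holds the NF-kB letters at -116 to -107 and, on the other strand, at -93 to -84. Dusp1 holds them at -52 to -43 and the cyclic AMP response element at -143 to -136. None of the 5 motifs has a match in the windows of Il12b and Ccne1. The NF-kB letters occur in 17.3% of 27025 promoters, in 22.2% of 3614 promoters of tested genes and in 7 of the 15 promoters at hand for the 25 genes described below as above both (Anxa1, Dusp1, Ifnb1, Il6, Irf8, Socs3 and Tiparp). The C/EBP letters occur in 9.55% of all promoters and in 4 of those 15 (Anxa1, Hsd17b11, Il6 and Ptgs2). The interferon-stimulated response element (3.04% of all promoters), AP-1 (6.87%) and the cyclic AMP response element (1.62%) each occur in 1 of the 15, those of Edn1, Il6 and Dusp1. A match is a description of the letters in this window and not evidence of binding.

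The receptors and adaptors themselves were looked at first. Tlr4 was at 25.3 ± 12.8 CPM with LPS+CpGB, 16.8 ± 4.68 with LPS and 23.0 ± 11.4 with CpGB, and no difference was called. Tlr9 had no count in the 12 libraries, which allows up to 5.84 CPM in the LPS+CpGB group by counting error, and only 7 counts in the whole series. Cd14, which hands LPS to TLR4, stood at 858, 862 and 959 CPM with LPS+CpGB, at 1385, 1236 and 1253 with LPS and at 1591, 985 and 1526 with CpGB, against 362 ± 36 in Ctrl. All 3 pair libraries were below the 6 single-ligand libraries, by 0.52 on the log2 scale against LPS (SE 0.14, adjusted p = 0.0201) and 0.59 against CpGB (SE 0.14, adjusted p = 0.00117), which is under the fold threshold. Of 17 receptor and adaptor genes, 13 were tested. None was called against LPS (1.46% of all tested genes were). Lower than with CpGB was 1 (2.92% of all tested genes), the signalling inhibitor Irak3 (60.3 ± 20.3 CPM against 125 ± 20.1). With so few genes, these counts do not set the list apart from all tested genes.

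The pair differed from CpGB at more genes than from LPS. Against LPS alone, 69 of 4720 genes were called (1.46%), 50 higher (1.06%) and 19 lower (0.403%). Against CpGB alone, 348 genes were called (7.37%), 210 higher (4.45%) and 138 lower (2.92%). Scaled by library size alone, the majority turned, with 154 higher and 194 lower. LPS and CpGB alone differed at 196 genes (4.15%), 135 higher with LPS (2.86%) and 61 higher with CpGB (1.29%), and 106 and 77 with library size alone. The median difference over all tested genes was -0.01 against LPS and -0.00 against CpGB. The pair, LPS, CpGB and Ctrl libraries were also thinned to the smallest total among them, 61823 in Ctrl replicate 1. The rest of the series kept its counts. This left 30 genes called against LPS and 209 against CpGB. Without LPS replicate 1, the count against LPS was 45.

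To be above both ligands, a gene needed a log2 difference of 1 or more over LPS and over CpGB, and the weaker of its p-values had to stay under 0.05 once adjusted over all genes. This held for 25 genes (0.53% of those tested). Among them were Ifnb1, Il12b, Il27, Il6, Tnfsf9, Ccl2, Ccl7, Edn1, Cd83, Irf8, Dusp1, Dusp2, Socs3, Etv3, Ier3, Tiparp, Ptgs2, Nos2, Hsd17b11, Htra4, Anxa1, Mrpl13, Ccne1 and Gm13889. In each of the 25 the 3 pair libraries lay above all 6 single-ligand libraries. The rule that chose them uses the pair's own level, so that all 25 were also called above Ctrl (16.5% of all tested genes were) is a description and not a second result. 3 genes were below both (0.0636%), and 9 with library size as the only scaling. Of the 25, 13 kept the call when each of the 9 libraries was left out in turn, among them Ifnb1, Il12b, Il6, Ptgs2, Edn1, Htra4, Dusp1, Socs3, Irf8, Etv3, Hsd17b11 and Anxa1. With the pair, LPS, CpGB and Ctrl libraries thinned to the same total, 9 genes were above both, among them 7 of the 25 (Ifnb1, Il12b, Il6, Ptgs2, Htra4, Hsd17b11 and Anxa1). DESeq2 called 20 of the 25, all but Ccne1, Cd83, Dusp2, Gm13889 and Nos2. With library size as the only scaling 19 held, all but Ccl2, Ccne1, Cd83, Dusp2, Nos2 and Tiparp.

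**Figure D1:**
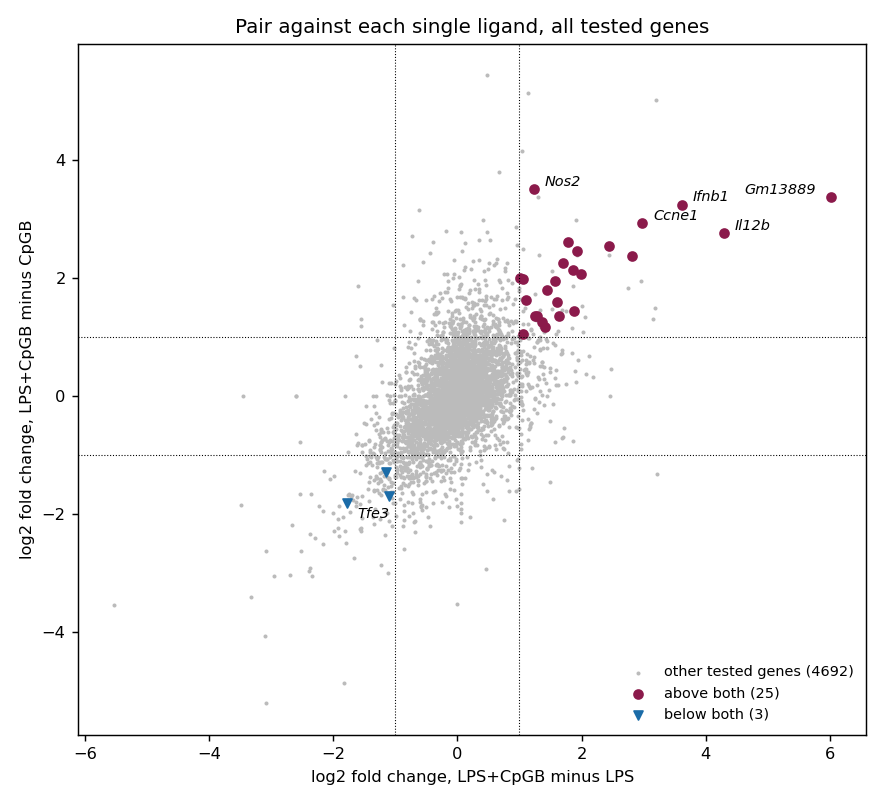
Log2 difference of LPS+CpGB from LPS alone (horizontal) and from CpGB alone (vertical) for each of the 4720 tested genes, with dotted lines at the fold threshold. The 25 genes above both (dark circles) spread to the upper right as far as Gm13889, Il12b and Ifnb1, the 3 below both (triangles) sit at the lower left, and grey points in those corners did not pass the test.

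Among the cytokines that shape T cell responses, Il12b and Il27 stood furthest above both ligands. Il12b encodes the p40 subunit shared by interleukin 12 and interleukin 23. It was at 1299, 1485 and 790 CPM with LPS+CpGB, at 74.4, 44.3 and 62.6 with LPS and at 165, 179 and 175 with CpGB, and Ctrl held 3 counts in all. Every pair library was far above every single-ligand library. The pair exceeded LPS by 4.29 (SE 0.36, adjusted p = 1.98e-21) and CpGB by 2.76 (SE 0.31, adjusted p = 2.72e-14). Il27, the p28 subunit of interleukin 27, was at 56.1, 73.7 and 108 CPM with the pair, against 12.0 ± 6.57 with LPS and 13.0 ± 11.3 with CpGB. Its differences were 2.81 and 2.37, and the call was lost without LPS+CpGB replicate 3 (adjusted p = 0.125).

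The subunits that pair with these products moved less. Il12a, the p35 partner in interleukin 12, was at 322 ± 55.2 CPM with the pair, 164 ± 39.4 with LPS and 123 ± 39.6 with CpGB, which is 0.92 above LPS (SE 0.22, adjusted p = 0.00465) and 1.28 above CpGB (SE 0.24, adjusted p = 7.59e-06). Ebi3, the partner of p28 in interleukin 27, was at 382 ± 85.5, 187 ± 38.0 and 298 ± 78.8 CPM in the same order and was called against LPS only. Il10, an anti-inflammatory cytokine, was at 72.2, 51.0 and 65.8 CPM with the pair, at 7.44, 5.54 and 8.95 with LPS, at 19.4, 15.3 and 13.8 with CpGB, and had no count in Ctrl. The groups did not overlap, and the pair was higher by 2.95 against LPS (SE 0.66, adjusted p = 0.00147) and by 1.95 against CpGB (SE 0.57, adjusted p = 0.0103, and 0.0614 without CpGB replicate 3). The larger p of both missed the threshold for genes above both (adjusted p = 0.0532). These Il10 levels rest on 32 counts with the pair, 4 with LPS and 8 with CpGB.

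Of the 13 listed T-cell polarising cytokines, 11 were tested, and 4 of them were above both (0.53% of all tested genes were). The 11 were called higher than with LPS in 6 cases (1.06% of all tested genes) and higher than with CpGB in 9 (4.45%). None was lower (0.403% and 2.92% of all tested genes were), and the median differences of the 11 were 1.09 and 1.59. The remaining member above both besides Il12b, Il27 and Il6 was Tnfsf9 (4-1BB ligand, a costimulatory protein), at 72.2, 147 and 89.3 CPM with the pair, 32.1 ± 4.80 with LPS, 24.4 ± 12.9 with CpGB and 23.9 ± 4.34 in Ctrl. Its call was lost without LPS+CpGB replicate 2 (adjusted p = 0.273), LPS replicate 2 (0.0591) or LPS replicate 3 (0.0618). Il15, which supports T and NK cells, behaved differently, with 302 ± 35.1 CPM with the pair, 262 ± 38.0 with LPS and 97.1 ± 17.7 with CpGB, so the pair was called above CpGB alone (1.59, SE 0.25, adjusted p = 1.4e-07).

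The inflammatory cytokines Il6, Tnf, Il1b and Il1a showed smaller differences than Il12b, in varied orders. Il6 was at 3007, 2971 and 3009 CPM with LPS+CpGB, at 1370, 1086 and 1342 with LPS, at 1009, 1195 and 1277 with CpGB and at 126 ± 48.6 in Ctrl. The pair libraries agreed closely with each other and stood above every single-ligand library, by 1.24 against LPS (SE 0.14, adjusted p = 1.27e-13) and 1.35 against CpGB (SE 0.14, adjusted p = 8.86e-16). Tnf, at 6143, 7376 and 7564 CPM with the pair, was 0.67 above LPS (4438 ± 66.6 CPM, SE 0.15, adjusted p = 0.00236) and overlapped CpGB (5473, 6699 and 6110 CPM), with a difference of 0.20 (SE 0.15, adjusted p = 0.466). Il1b likewise stood 0.71 above LPS (5751 ± 231 against 3515 ± 107 CPM, adjusted p = 8.76e-07) and overlapped CpGB (5542 ± 826 CPM). Il1a was above both at 3006 ± 208 CPM against 1533 ± 66.1 and 1468 ± 264, by 0.98 and 1.01, so it passed the test against each but fell just short of the fold threshold against LPS. Over the 13 tested of 15 genes of the inflammatory list, 7 were called higher and none lower than with LPS (median 1.24). Of all tested genes 1.06% and 0.403% were. Against CpGB, 5 were called higher and 1 lower, Cxcl2 (median 0.72), beside 4.45% and 2.92% of all tested genes.

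Type I interferon and its transcription factors came next. Ifnb1, the gene of interferon beta, was at 128, 255 and 174 CPM with the pair, at 0, 22.2 and 17.9 with LPS, at 38.8, 10.2 and 18.4 with CpGB and at 12.0 ± 2.17 in Ctrl. The single-ligand libraries overlapped Ctrl, while every pair library was above all of them. The pair was higher by 3.61 than LPS (SE 0.46, adjusted p = 1.2e-10) and by 3.24 than CpGB (SE 0.44, adjusted p = 4.83e-10), and no single ligand was called against Ctrl (LPS adjusted p = 0.858, CpGB adjusted p = 0.682). Irf8, a transcription factor of dendritic cell development that also takes part in Il12b induction, was at 545, 482 and 522 CPM with the pair, 239 ± 11.7 with LPS, 167 ± 21.7 with CpGB and 135 ± 46.6 in Ctrl, with differences of 1.10 and 1.62. Ifnb1 and Irf8 were the only ones above both among 17 tested interferon, IRF and STAT genes (0.53% of all tested genes were above both). Of the 17, 2 were called above LPS (1.06% of all tested genes) and 5 above CpGB (4.45%).

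Among chemokines, the monocyte attractants Ccl2 and Ccl7 were above both ligands, and the related Ccl12 was not (72.8 CPM with the pair, 30.3 with LPS and 39.2 with CpGB). Ccl7 (MCP-3) was at 136, 113 and 122 CPM with the pair, 35.1 ± 6.55 with LPS and 22.5 ± 14.7 with CpGB, and had no count in Ctrl. The pair was above every single-ligand library, by 1.78 and 2.61, but the call was lost without LPS+CpGB replicate 1 or 3 or LPS replicate 2 or 3 (adjusted p up to 0.118). Ccl2 (MCP-1) was at 426 ± 35.8 CPM with the pair, 208 ± 25.1 with LPS and 97.0 ± 42.0 with CpGB, just past the fold threshold against LPS at 1.01, and lost without LPS+CpGB replicate 2, LPS replicate 1 or LPS replicate 2 (adjusted p up to 0.0903). Ccl3 and Ccl4 passed the test against each ligand, Ccl3 with 10876 CPM against 3372 with LPS (1.69) and 6565 with CpGB (0.72), and Ccl4 with 11426 CPM against 4198 (1.44) and 6454 (0.82). Over the 18 listed chemokines, all tested, 5 were called higher than with LPS (1.06% of all tested genes were). Against CpGB, 6 were called higher (4.45% of all tested genes) and 2 lower (2.92%). Reads of Ccl2, Ccl7 and the related Ccl12 could have been assigned among near-identical stretches, since the handling of such reads is not given in the sources used here.

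Feedback inhibitors of signalling formed a further group. Dusp1, a phosphatase that turns off MAP kinases, was at 265, 272 and 212 CPM with the pair, at 104, 49.9 and 44.7 with LPS, at 97.0, 30.6 and 64.6 with CpGB and at 47.4 ± 13.0 in Ctrl. Single-ligand and Ctrl libraries overlapped, and the pair was higher by 1.98 (SE 0.32, adjusted p = 8.42e-07) and 2.06 (SE 0.33, adjusted p = 1.37e-07). Socs3, an inhibitor of cytokine receptor signalling, was at 834, 833 and 762 CPM with the pair against 329 ± 41.9 with LPS and 306 ± 50.4 with CpGB, with differences of 1.29 and 1.36. Dusp2, a second MAP kinase phosphatase, was at 225, 164 and 188 CPM against 71.0 ± 25.1 and 78.8 ± 28.9, and it kept its call in only 1 of the 9 fits with a library left out, the one without CpGB replicate 3 (adjusted p up to 0.234 in the others). Of 21 tested NF-kB and feedback genes, 6 were called higher than with LPS (1.06% of all tested genes were) and 4 higher than with CpGB (4.45%). None was lower (0.403% and 2.92% of all tested genes were), and the medians were 0.69 and 0.51. The NF-kB inhibitor Nfkbia (1841 ± 54.9 CPM against 1152 ± 24.3 and 1374 ± 125) and Tnfaip3 (1051 ± 124 against 622 ± 64.6 and 524 ± 53.8) passed the test against each ligand under the fold threshold.

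Several genes of enzymes and secreted factors were above both ligands. Ptgs2, the inducible cyclooxygenase that makes prostaglandin precursors, was at 818, 754 and 766 CPM with the pair, at 223, 233 and 295 with LPS and at 184, 209 and 346 with CpGB, with differences of 1.61 (SE 0.21, adjusted p = 4.34e-10) and 1.59 (SE 0.21, adjusted p = 2.51e-10). Edn1 (endothelin 1, a vasoconstrictor peptide) was at 422 ± 42.1 CPM against 139 ± 31.2 and 103 ± 31.6, and Htra4, a serine protease, was at 599 ± 87.1 CPM against 152 ± 28.4 and 104 ± 30.8. Nos2, the inducible nitric oxide synthase, was at 152, 136 and 188 CPM with the pair, at 14.9, 72.0 and 98.4 with LPS and at 9.70, 5.11 and 23.1 with CpGB. The LPS libraries of Nos2 differed widely among themselves, and its call held in only 2 of the 9 fits with a library left out, those without LPS replicate 3 or CpGB replicate 3 (adjusted p up to 0.465 in the others).

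A test for more than additive effects was passed by 3 of the genes above both, Hsd17b11, Anxa1 and Mrpl13. In these the pair exceeded Ctrl by more than the sum of the log2 effects of both ligands. By their mean levels Ifnb1, Dusp1 and Etv3 also exceeded that sum, but the excess did not pass the test. No gene is shown to be additive by missing this test. Hsd17b11, an enzyme of lipid droplets that acts on steroids, was at 1403, 1831 and 1462 CPM with the pair, at 409, 399 and 474 with LPS, at 320, 306 and 424 with CpGB and at 374, 611 and 432 in Ctrl. LPS, CpGB and Ctrl libraries overlapped while the pair libraries stood apart, and the interaction (pair minus both ligands plus Ctrl, which is 0 where log2 effects add up) was 2.27 (SE 0.30, adjusted p = 5.83e-11). Anxa1 (annexin A1, a phospholipid-binding protein with anti-inflammatory activity) was at 4258, 4462 and 3864 CPM with the pair, at 1213, 1452 and 1356 with LPS, at 1514, 1573 and 1803 with CpGB and at 1579, 1746 and 1786 in Ctrl. All LPS libraries of Anxa1 lay below Ctrl, and the interaction was 1.70 (SE 0.22, adjusted p = 2.11e-11). Mrpl13, a protein of the mitochondrial ribosome, was at 217, 136 and 150 CPM with the pair, 61.2 ± 11.5 with LPS, 46.5 ± 9.95 with CpGB and 76.5 ± 19.7 in Ctrl, with an interaction of 2.11 (SE 0.58, adjusted p = 0.00433). Without LPS+CpGB replicate 1, Mrpl13 missed the threshold (adjusted p = 0.0505). In mm10 coordinates Hsd17b11 lies at chr5:103989762-104021919, Anxa1 at chr19:20373428-20390944 and Mrpl13 at chr15:55534094-55557748, all on the minus strand. Anxa1 overlaps the plus-strand gene 1500015L24Rik and Mrpl13 overlaps Mtbp, and whether counting used strand is not given in the sources used here.

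Over the 25 genes, 10 were called higher with LPS than in Ctrl (14.6% of all tested genes were) and 8 were called higher with CpGB (10.8%). The interaction was positive and passed the test in Hsd17b11, Anxa1 and Mrpl13. It was negative in Il6 (-1.90), Ptgs2 (-2.07) and Socs3 (-1.22), each raised by both single ligands, so the pair exceeded Ctrl by less than the sum of the log2 effects of both ligands. Over all tested genes the interaction was positive in 162 (3.43%) and negative in 456 (9.66%). The number of positive interactions varied with the processing, with 48 with no filter on low counts, 70 after thinning and 249 with library size alone, beside 470, 302 and 393 negative ones. In 412 of those 456 the pair was within a log2 difference of 1 of the higher single ligand. The share of all tested genes that close was not computed, so this count does not set the 456 apart. Over all tested genes the root mean square log2 difference of the pair was 0.62 from LPS and 0.78 from CpGB.

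Etv3, Ier3, Cd83 and Tiparp were also above both. Etv3, a transcriptional repressor, was at 383 ± 71.0 CPM against 141 ± 55.7 with LPS and 164 ± 20.8 with CpGB, with Ctrl at 136 ± 30.3. Ier3, an immediate early gene, was at 185 ± 36.0 CPM against 50.1 ± 9.39 and 72.6 ± 21.6, and was lost without LPS+CpGB replicate 2 (adjusted p = 0.0569). Cd83, a maturation marker of dendritic cells, was at 267 ± 44.5 CPM against 132 ± 14.7 and 135 ± 26.9, and was lost without LPS+CpGB replicate 3, LPS replicate 3 or CpGB replicate 2 (adjusted p up to 0.0763). Tiparp, an ADP-ribosyltransferase, was at 316 ± 60.9 CPM against 147 ± 19.1 and 77.7 ± 3.96, and was lost without LPS+CpGB replicate 1 or LPS replicate 2 (adjusted p up to 0.0509).

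The least counted genes were Ccne1 and Gm13889. Ccne1 (cyclin E1, which drives entry into S phase) had 25 counts with the pair and 3 each with LPS and CpGB, a ratio of 8.73 (95% counting interval 2.66 to 45.2) and 8.37 (2.55 to 43.3). Of the 9 fits with a library left out, it was called only in the one without LPS+CpGB replicate 3, and the adjusted p reached 0.270 in the others. Gm13889, a predicted gene, had 24 counts with the pair, none with LPS or in Ctrl and 2 with CpGB. It was at least 8.38-fold higher than with LPS, against a floor of 3 counts over the group, and 12.0 times CpGB (2.99 to 105), but the call was lost without LPS+CpGB replicate 1 or 3 or CpGB replicate 2 or 3 (adjusted p up to 0.206). Only 5 of 20 listed cell cycle genes were tested. None was called against LPS (1.46% of all tested genes were) or CpGB (7.37%), which does not set so small a list apart.

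**Figure D2:**
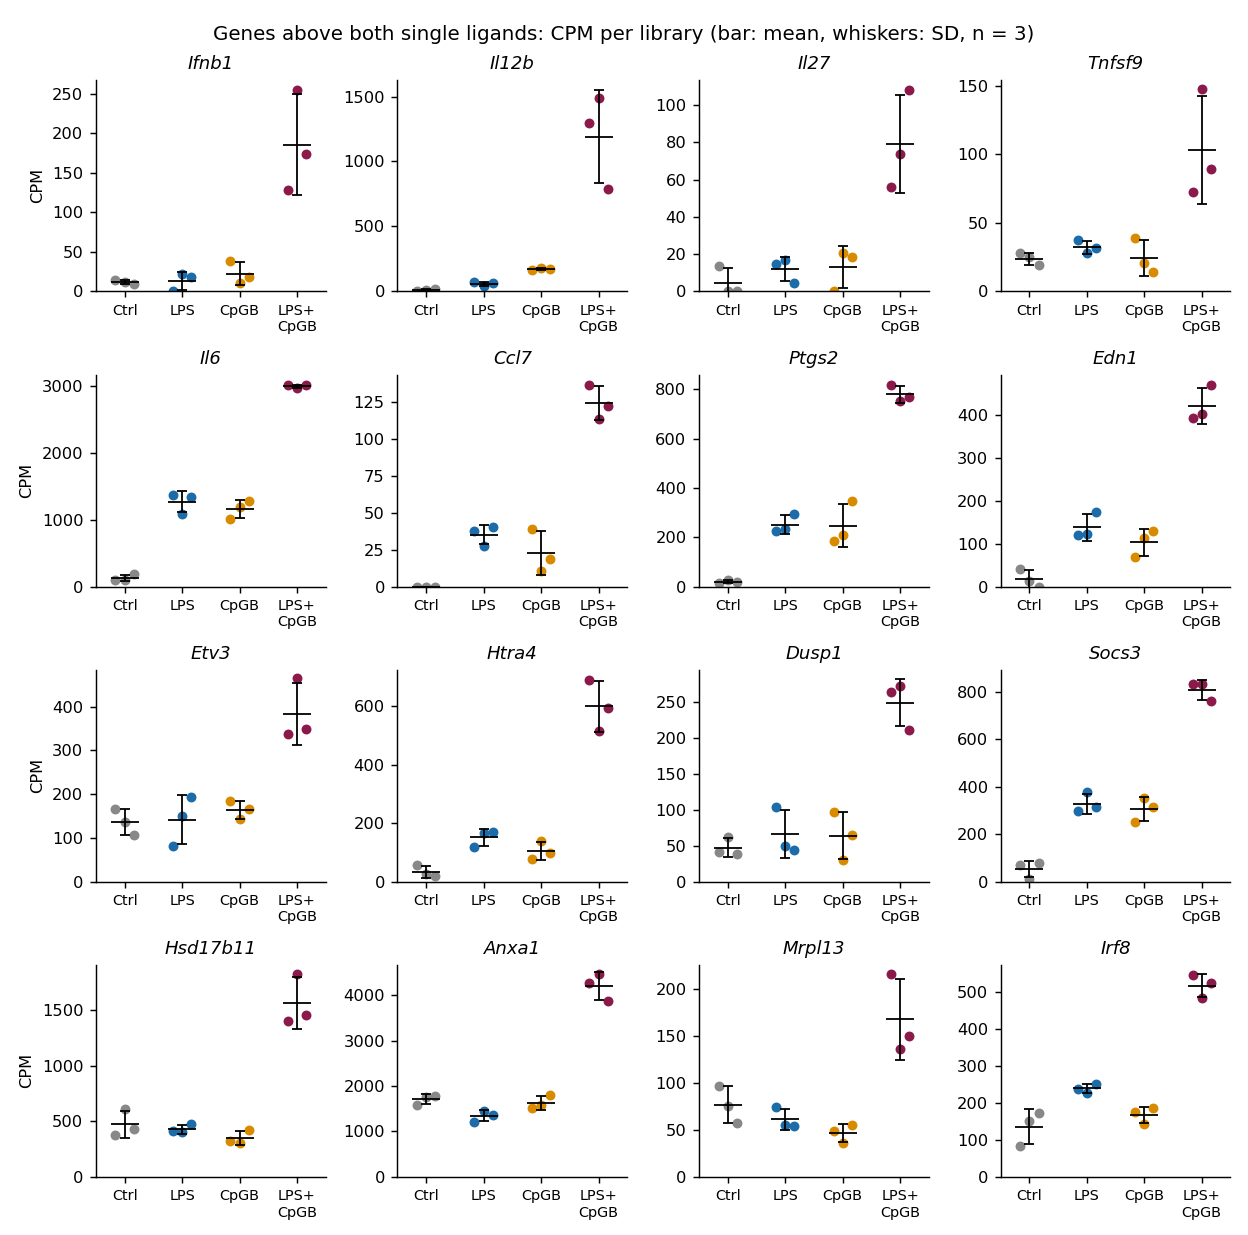
CPM of 16 of the 25 genes above both ligands in Ctrl, LPS, CpGB and LPS+CpGB, with each point a library, the bar the mean and the whiskers the SD of 3 libraries, on linear axes from 0. In each panel the 3 LPS+CpGB points lie above all LPS and CpGB points, and in Ifnb1, Dusp1, Hsd17b11, Anxa1 and Mrpl13 the single ligands lie near Ctrl.

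The 3 genes below both were Tfe3, Bhlhe41 and Nadk, and none of them kept the call in all fits with a library left out. Tfe3, a transcription factor of lysosomal genes, was at 24.1, 22.7 and 14.1 CPM with the pair, 69.3 ± 17.0 with LPS and 66.1 ± 23.9 with CpGB. Its level in Ctrl was 108 ± 19.5 CPM. Bhlhe41, a transcriptional repressor, was at 96.2, 102 and 122 CPM with the pair, 246 ± 31.9 with LPS, 270 ± 57.3 with CpGB and 229 ± 54.5 in Ctrl. Nadk, the kinase that makes NADP from NAD, was at 80.2, 79.4 and 89.3 CPM with the pair, 183 ± 46.2 with LPS, 276 ± 25.3 with CpGB and 252 ± 78.9 in Ctrl. In all of them the pair libraries lay below the 6 single-ligand libraries. DESeq2 called 1 of them, Bhlhe41, below both, and none of them passed after thinning. Tfe3 was lost without any of 7 libraries (all but LPS replicate 2 and CpGB replicate 1), Bhlhe41 without any of 5 (each LPS+CpGB library, LPS replicate 1 and CpGB replicate 2) and Nadk without any of 5 (each LPS+CpGB library, LPS replicates 1 and 3), with adjusted p up to 0.317, 0.106 and 0.236.

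Which ligand's level the pair took was read from the 196 genes that differed between LPS and CpGB alone. A gene was placed at the LPS level when the pair differed from CpGB towards LPS and did not pass the test against LPS, and at the CpGB level in the mirror case, although a p above the threshold does not show equality. At the LPS level were 129 genes (65.8%), at the CpGB level 2, between both 1, beyond both 5 and in none of these classes 59. On a scale with CpGB alone at 0 and LPS alone at 1, the median position was 0.94 for the 135 genes higher with LPS (quartiles 0.76 and 1.13), and 127 of them lay nearer LPS. For the 61 genes higher with CpGB the median was 0.79 (quartiles 0.53 and 1.07), and 48 lay nearer LPS. These positions are descriptions, since LPS and CpGB libraries enter both the choice and the scale. Of the 94 genes at the LPS level that were higher with LPS, 82 were called higher with LPS than in Ctrl (14.6% of all tested genes). Of the 35 at the LPS level that were higher with CpGB, 16 were called lower with LPS than in Ctrl (9.6% of all tested genes) and 11 were called higher with CpGB (10.8%). These counts against Ctrl are descriptions as well, since the same LPS and CpGB libraries chose the genes.

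**Figure D3:**
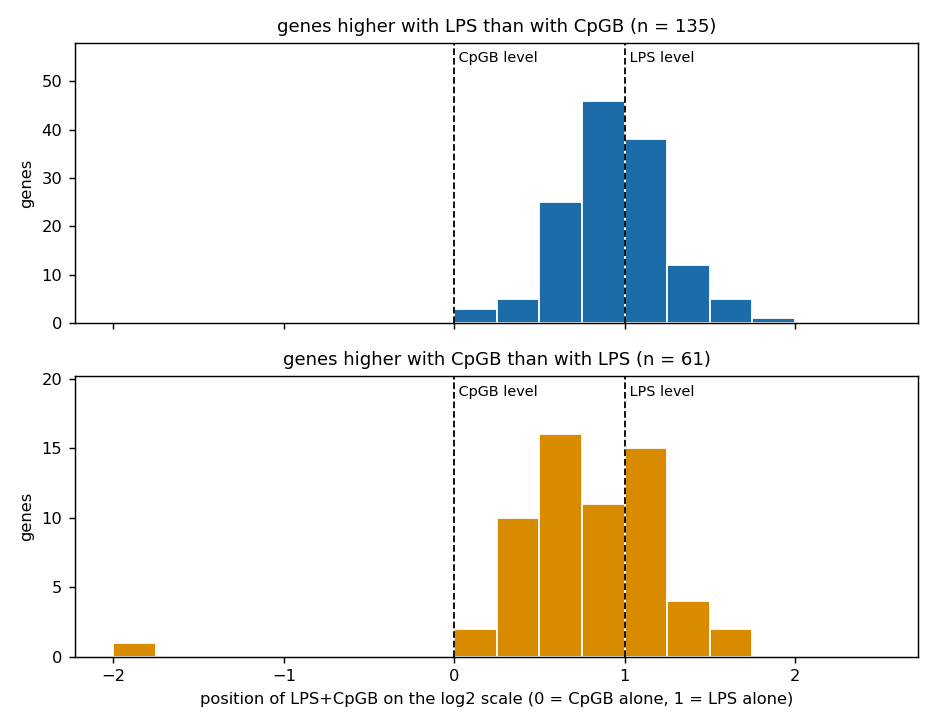
Number of genes by the position of LPS+CpGB between CpGB alone (0) and LPS alone (1) on the log2 scale, for the 135 genes higher with LPS (top) and the 61 higher with CpGB (bottom). Most genes of both sets gather around 1, with medians of 0.94 and 0.79, and the bar near -2 is Il12b, where the pair is above both.

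Of the 15 listed interferon-induced genes, 9 were at the LPS level, and the other 6 were not called between LPS and CpGB. All 15 were tested and all were called higher than Ctrl with LPS (14.6% of all tested genes were), with CpGB (10.8%) and with the pair (16.5%). None was called between pair and LPS (1.46% of all tested genes were). The differences there ran from -0.34 to 0.30 with a median of 0.07 and no SE above 0.27. Against CpGB, 9 were called higher with the pair (4.45% of all tested genes were), with a median of 1.08. The same 9 were called higher with LPS than with CpGB (2.86% of all tested genes): Ifit1, Ifit2, Ifit3, Rsad2, Mx1, Mx2, Oasl1, Cmpk2 and Cxcl10. Cxcl10, a chemokine for activated T cells, was at 7578, 7767 and 8147 CPM with the pair, at 6774, 7493 and 7647 with LPS and at 902, 2471 and 1831 with CpGB. Ifit1, which binds viral RNA, was at 4596 ± 270 CPM with the pair, 3818 ± 253 with LPS and 1548 ± 436 with CpGB. The pair was thus above CpGB in all libraries, while Cxcl10 overlapped LPS. Ifnb1 itself, given above, did not follow this order, since it was at 13.4 ± 11.8 CPM with LPS and 186 ± 64.2 with the pair.

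Outside that list, 5 of the genes at the LPS level with the largest excess of LPS over CpGB are described here. Cxcl11, a chemokine gene that the annotation lists as a polymorphic pseudogene, was at 93.5 ± 12.4 CPM with the pair, 155 ± 6.01 with LPS and 14.6 ± 5.13 with CpGB. Serpina3f, a serine protease inhibitor, was at 250.5 ± 36.3, 183 ± 31.3 and 26.9 ± 21.3 CPM in the same order, and Car4, a carbonic anhydrase of the cell surface, at 119 ± 17.2, 75.7 ± 19.6 and 6.48 ± 5.63. Vcam1, an adhesion molecule, was at 54.2 ± 8.06 CPM with the pair, 82.2 ± 20.2 with LPS and 14.3 ± 7.99 with CpGB, and its difference from CpGB was lost without LPS+CpGB replicate 3 (adjusted p = 0.0529) or CpGB replicate 2 (0.109). Sh3bgrl2 was at 42.5 ± 29.1, 51.4 ± 7.52 and 4.61 ± 7.99 CPM, and was lost without LPS+CpGB replicate 2 (adjusted p = 0.110) or CpGB replicate 2 (0.0663). Cd40, a receptor through which T cells activate dendritic cells, went past the LPS level, with 3031, 3101 and 3093 CPM with the pair, 1538 ± 51.0 with LPS and 750 ± 143 with CpGB, just under the fold threshold against LPS. It was among the 5 genes beyond both, with Il12b, Nos2, Gbp4 and U90926. Il12b belongs there only by its difference between the single ligands (1.54 higher with CpGB, adjusted p = 0.0247), which was lost without CpGB replicate 2 or 3 or LPS replicate 2 or 3 (adjusted p up to 0.122).

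Of the 61 genes higher with CpGB than with LPS, 35 were at the LPS level, and the neutrophil chemokines Cxcl1, Cxcl2 and Cxcl3 differed among themselves. Cxcl3 was at 1484, 1066 and 1316 CPM with the pair, at 1236, 1480 and 1002 with LPS, at 4153, 4340 and 3698 with CpGB and at 337 ± 63.7 in Ctrl. Pair and LPS libraries overlapped and lay well below CpGB (a log2 difference of -1.66 for the pair, SE 0.20, adjusted p = 1.99e-12). Cxcl2 was at 1767 ± 179 CPM with the pair, 1172 ± 104 with LPS and 4328 ± 174 with CpGB, and its difference from LPS was 0.59 (SE 0.18, adjusted p = 0.0534). This placed Cxcl2 at the LPS level, but it lay between both with the replicate block (adjusted p = 0.0235), in the fit of the 4 groups alone (3.94e-06) and with no filter on low counts (0.00658). Cxcl1 was the gene between both, at 425, 340 and 362 CPM with the pair, 123 ± 9.86 with LPS and 639 ± 42.0 with CpGB, 1.58 above LPS (SE 0.29, adjusted p = 2.05e-05) and -0.79 against CpGB (SE 0.22, adjusted p = 0.00607). The 3 chemokines are close relatives, and reads shared among them could have been split. The scavenger receptor Marco was at 1393 ± 83.3 CPM with the pair, 1456 ± 126 with LPS, 4247 ± 705 with CpGB and 337 ± 20.1 in Ctrl.

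Among the other genes at the LPS level that were higher with CpGB, some were lower with LPS than in Ctrl and some were higher with CpGB. Clec4a2, an inhibitory C-type lectin receptor, was at 88.2, 68.0 and 61.1 CPM with the pair, at 52.1, 55.4 and 71.6 with LPS, at 359, 255 and 291 with CpGB and at 285 ± 115 in Ctrl, and it fell with LPS (-2.18 against Ctrl) but was not called with CpGB (0.08). Herpud1, of endoplasmic reticulum protein degradation, was at 24.5 ± 6.83 CPM with the pair, 16.1 ± 5.74 with LPS, 72.4 ± 9.18 with CpGB and 77.0 ± 26.4 in Ctrl. The difference of Herpud1 between pair and CpGB was lost without LPS+CpGB replicate 2 or 3 or CpGB replicate 3 (adjusted p up to 0.129), with no filter on low counts (0.0508) and after thinning (0.626). Cd300e, an activating receptor of myeloid cells, was at 9.91 ± 12.6 CPM with the pair, 4.83 ± 4.52 with LPS, 62.9 ± 13.0 with CpGB and 8.31 ± 14.4 in Ctrl, so it rose with CpGB (2.95 above Ctrl) but was not called with the pair. Its pair level rests on 4 counts, and after thinning Cd300e missed the test against CpGB (adjusted p = 0.195). Clec4a1 was at 66.3 ± 25.9, 33.2 ± 13.7 and 136 ± 48.6 CPM with the pair, LPS and CpGB, and lost its difference from CpGB without LPS+CpGB replicate 2 or 3 or CpGB replicate 1 or 2 (adjusted p up to 0.349). The difference of Clec4a1 was also lost with DESeq2 (adjusted p = 0.0919), with no filter on low counts (0.106) and after thinning (0.386).

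The CpGB level was rare. Nfkbiz, an atypical IkB protein needed for secondary NF-kB targets, was at 505, 459 and 437 CPM with the pair, at 127, 183 and 201 with LPS and at 408, 521 and 576 with CpGB. Pair and CpGB libraries overlapped and stood above LPS, by 1.40 for the pair (SE 0.20, adjusted p = 1.04e-08). Cope, a subunit of the COPI coat of transport vesicles, was at 119 ± 29.6 CPM with the pair, 48.7 ± 25.2 with LPS, 134 ± 57.7 with CpGB and 126 ± 11.7 in Ctrl. Its call was lost without LPS+CpGB replicate 1 or 3 or LPS replicate 1 or 3 (adjusted p up to 0.247), with no filter on low counts (0.0608) and after thinning (0.790). Tnf and Il1b, given above, overlapped CpGB as well, but differed from LPS by less than the fold threshold.

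**Figure D4:**
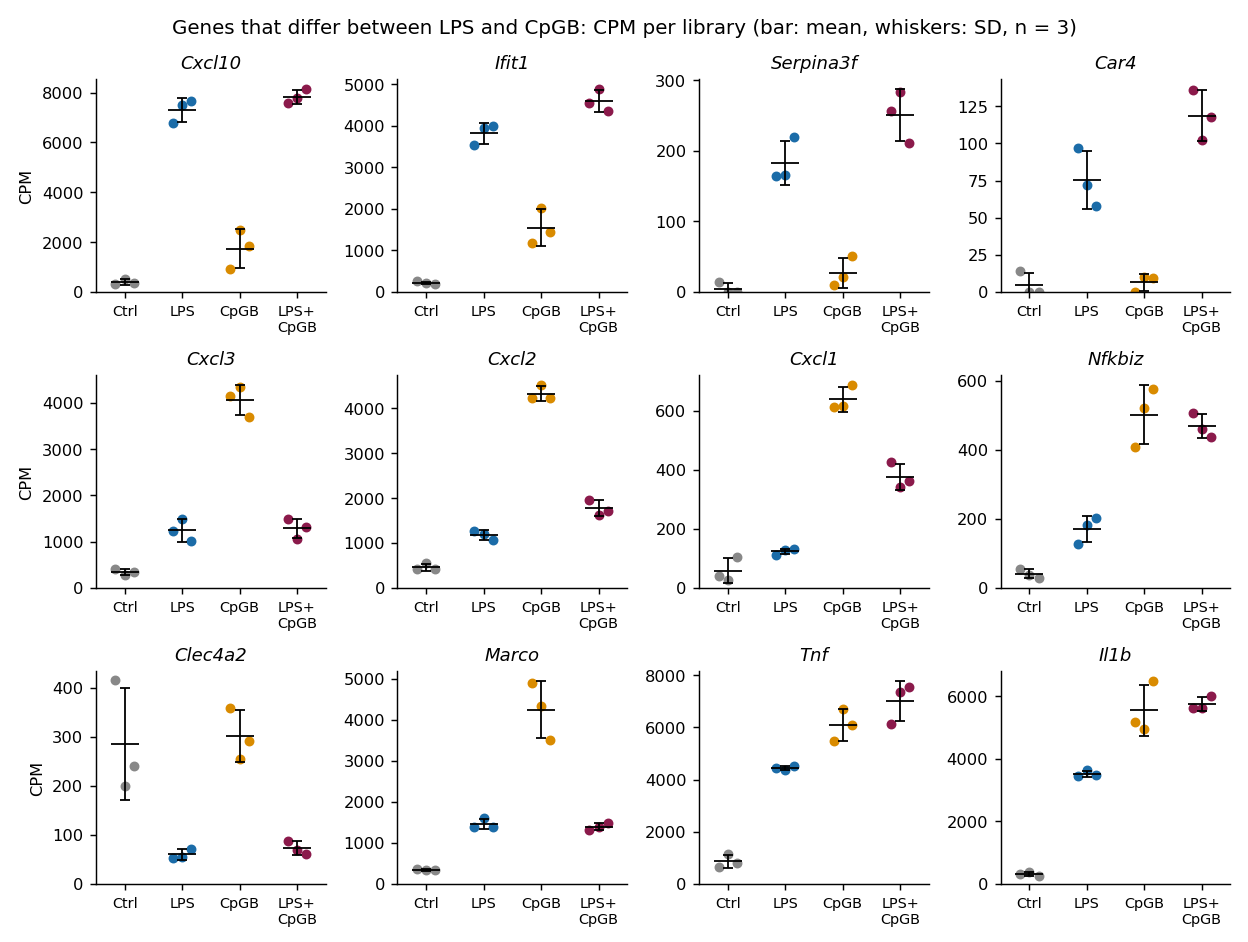
CPM of 12 genes whose levels differ between LPS and CpGB alone, per library (points) with mean (bar) and SD (whiskers) of 3 libraries in Ctrl, LPS, CpGB and LPS+CpGB, on linear axes from 0. The LPS+CpGB points lie beside LPS in Cxcl10, Cxcl3, Clec4a2 and Marco, beside CpGB in Nfkbiz and Il1b, and between both in Cxcl1.

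Counts in the other gene lists are read against the 1.46% of all tested genes called between pair and LPS and the 7.37% called between pair and CpGB. Of 10 tested costimulation and maturation genes, 1 was called higher than with LPS and 4 higher than with CpGB, with medians of 0.21 and 0.74. Of 11 MHC class I genes, 8 were called higher than Ctrl with the pair (16.5% of all tested genes were) and none reached the fold threshold against either ligand. All 11 were above CpGB, from 0.19 to 0.85 with a median of 0.49, and 5 of them passed the adjusted p alone, while none passed it against LPS. None of 6 tested MHC class II genes was called in any comparison. None of 21 glycolysis and hypoxia genes was called against LPS or CpGB, and on the adjusted p alone 1 was higher than with LPS, and 1 was higher and 1 lower than with CpGB. With lists this small, 0 calls do not set a list apart from all tested genes. Of 14 tested cholesterol genes, none was called against LPS, and against CpGB Ch25h, the 25-hydroxylase of cholesterol, was higher (382 ± 12.5 CPM against 104 ± 35.3) while the synthesis enzymes Hmgcs1 (55.3 ± 6.61 against 122 ± 45.5), Sqle (17.4 ± 13.5 against 72.9 ± 7.61) and Fdps (47.5 ± 15.7 against 130 ± 33.5) were lower. Of 11 tested lipid droplet genes, Hsd17b11 was the single one called against each ligand. Plin2, the coat protein of lipid droplets, was at 463 ± 94.9 CPM with the pair, 792 ± 99.4 with LPS and 580 ± 27.0 with CpGB, a difference of -0.74 against LPS (SE 0.16, adjusted p = 0.00147) under the fold threshold. Of 12 tested phagocytic and scavenger receptors, Fcgr2b was called higher than with LPS (669 ± 122 against 258 ± 64.4 CPM), and Marco, Clec4a2 and Csf1r were called lower than with CpGB. Csf1r, the receptor of macrophage colony-stimulating factor, was at 432 ± 45.4 CPM with the pair, 654 ± 81.4 with LPS, 974 ± 108 with CpGB and 1718 ± 85.2 in Ctrl. It belongs to the macrophage markers whose sum moved with the groups.

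**Figure D5:**
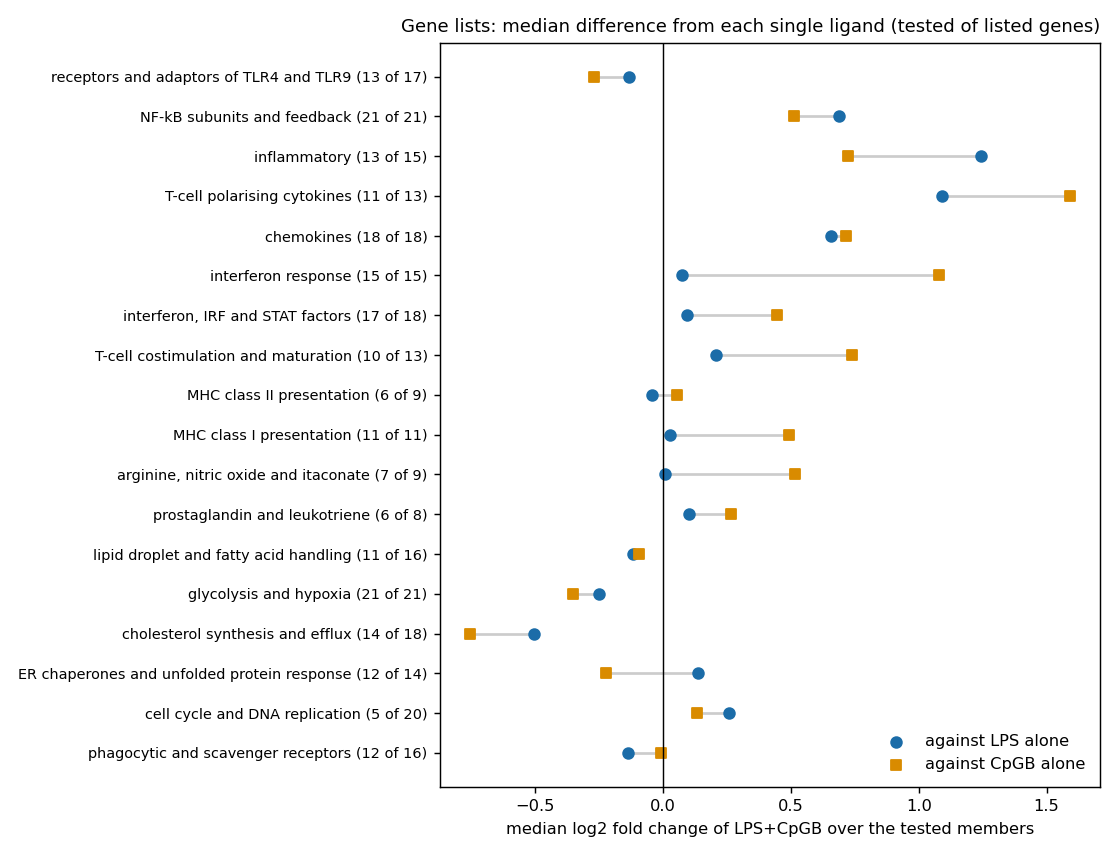
Median log2 difference of LPS+CpGB from LPS alone (circles) and from CpGB alone (squares) over the tested members of each gene list, with tested and listed numbers in brackets. T-cell polarising and inflammatory lists lie to the right in both comparisons, the interferon list is near 0 against LPS (0.07) and at 1.08 against CpGB, and the median over all tested genes is near 0 in both.

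The 25 genes above both were also set against the pairs PAM+LPS, PAM+CpGB and LPS+cGAMP, 3 libraries each, which hold 1 of the 2 ligands with another. Since the 25 were chosen for a high level with LPS+CpGB, these counts favour that pair. They were called higher with LPS+CpGB than with PAM+LPS in 7 cases (0.487% of all tested genes were), than with PAM+CpGB in 23 (7.67%) and than with LPS+cGAMP in 10 (1.06%), where 1 gene, Ccne1, was lower (2.1%). Il12b, Hsd17b11, Anxa1, Mrpl13 and Gm13889 were called higher than in each of the 3. Il12b exceeded PAM+LPS by 3.33, PAM+CpGB by 3.66 and LPS+cGAMP by 2.41, Hsd17b11 by 1.45, 2.65 and 1.40, and Anxa1 by 1.11, 1.93 and 1.67. Of the 25, 11 had their highest mean among the 21 pairs of the series with LPS+CpGB. Ifnb1 and Il6 did not, with their highest means of 409 CPM in cGAMP+CpGB and 5896 CPM in PAM+cGAMP.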

How the data were processed

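The authors deposited 1 table of UMI counts, with 23481 gene symbols in rows and 64 groups of 3 libraries in columns. Per the submitters' processing notes, reads were handled with BWA 0.7.15 and build mm10. How reads with several matches were handled, and whether strand was used, is not given in the sources used here. Counts were fitted in edgeR 4.0.16 (R 4.3.3, limma 3.58.1) with its quasi-likelihood test on all libraries, with TMM scaling, 1 coefficient per group, 128 residual degrees of freedom and a filter on low counts that left 4720 genes, which hold 95.7% of the UMIs. P-values were adjusted by Benjamini-Hochberg over those genes. Intervals and floors (3 counts) cover counting error only. The script was tested on simulated data. Alternatives were DESeq2 1.42.0, other scalings, no filter on low counts, no fold threshold, thinning, fewer samples in the fit, the replicate number as a block, and leaving out each library.

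The genes and lists were chosen with earlier results of these data known, and the inflammatory and interferon lists come from that earlier analysis. The rule for named genes took the 14 with the largest smaller-of-both difference among those above both (mean of at least 20 CPM), up to 8 below both, up to 5 in each direction at the level of LPS or CpGB (at least 50 CPM in the higher single), up to 4 members of each list that were above or below both or called in both comparisons, and by name Il12b, Il6, Tnf, Il10, Cxcl10, Ifit1, Ifnb1, Il1b, Tlr4, Tlr9, Cd14, Nos2 and Cd40. All other named genes, among them Ier3, Anxa1, Etv3, Tiparp, Marco, Csf1r, Plin2, Il1a, Il12a, Il15, Ccl3, Ccl4, Cxcl1, Cxcl3 and Ch25h, were chosen after their values were seen, as was the comparison with other pairs. 1 gene above both is not reported here. Gene positions come from GENCODE M21 on mm10, where 4516 of the 4720 symbols matched.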

Additional observations from a re-analysis of the deposited data

How the results depend on the processing

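No called value of a single gene changed its sign under an alternative, but library size alone turned the balance of calls against CpGB to 44.3% higher. Values that were not called could change sign, as for Cd300e against LPS (0.46, and -0.92 without LPS+CpGB replicate 1). The pair, LPS, CpGB and Ctrl libraries were thinned to the smallest total among them, and the rest of the series was not. The genes called were then 30 (26 higher, 86.7%, against 72.5% without thinning) for the pair against LPS and 209 (70.8% higher, against 60.3%) against CpGB. Further counts were 90 for LPS against CpGB, 9 above both, 1 below both, 57 at the LPS level, 0 between both and 372 with an interaction. Without a fold threshold and without thinning, the counts were 118, 582, 383, 51 above both, 15 below both, 242 at the LPS level and 8 at the CpGB level. Genes below both numbered 1 with DESeq2, 5 with RLE size factors, 9 with library size alone and 5 in a fit of the 4 groups alone. The CpGB level held 1 gene with no filter on low counts and 4 in the 4-group fit, and 2 and 3 genes lay between both in these. Leaving out each library in turn gave 45 to 69 genes against LPS, 281 to 350 against CpGB, 143 to 196 for LPS against CpGB, 19 to 24 above both, 0 to 3 below both, 99 to 130 at the LPS level, 1 to 4 at the CpGB level, 1 to 1 between both and 533 to 611 with an interaction. The cause of these shifts was not tested, beyond fewer counts or libraries. The 9 correlations of deviations between same-numbered libraries ran from -0.013 to 0.041. Libraries of a group differed by little more than counting error, with a chi-square per degree of freedom of 1.14 to 1.41. These correlations therefore cannot decide whether replicate numbers pair the libraries. Totals rose from replicate 1 to replicate 3 in each of the 4 groups, for LPS+CpGB from 130507 to 228111. Of 18 library comparisons, 9 were best with their own number. The replicate block left 25 genes above both and placed 2 between both, Cxcl2 among them. Of the 25 genes above both, 7 (Anxa1, Hsd17b11, Htra4, Ifnb1, Il12b, Il6 and Ptgs2) kept their call under all alternatives run. Library size alone moved the median over all genes by -0.14 for the pair against CpGB, and by -0.22 to -0.36 for comparisons with Ctrl. Ctrl, with the fewest UMIs, limits what can be said of low genes there.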

Other observations

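Gbp4, a GTPase induced by interferon gamma, was at 649 CPM with LPS+CpGB, 381 with LPS and 137.5 with CpGB. U90926 was at 273, 134 and 51.6 CPM in the same order. Gbp4 reads could have been shared with related GTPase genes. Of 12 tested endoplasmic reticulum stress genes, none was called between the pair and LPS (1.46% of all tested genes were). Herpud1 was the 1 called lower than with CpGB (2.92% of all tested genes). These counts do not set so small a list apart from all tested genes. Tnfsf15, a TNF family ligand that acts on T cells, was at 759 CPM with the pair, 396 with LPS and 293 with CpGB, which is 0.94 and 1.27 above them.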
